A study of Mus musculus with 2 samples.

Results

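Glycolysis, lactate and hypoxia genes were followed as a set of 33 genes among the 32285 genes counted in immune cells of AT3 tumors. The set was defined by name and by pathway, with earlier results of these data known. It took in glucose transporters, hexokinases, the enzymes from glucose-6-phosphate to pyruvate, the regulators of phosphofructokinase, lactate dehydrogenases and lactate carriers. A pyruvate dehydrogenase kinase and genes known to respond to low oxygen completed it. All 33 had at least 1 UMI (a unique molecular identifier, which counts a captured transcript once) in each of 2 libraries.

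AT3 is a mouse mammary tumor line, and both libraries held cells of AT3 tumors sorted for CD45, the common leukocyte marker. A second sentence of the sample description names a live CD11b+ sort, and the T and B cells found here do not usually carry the myeloid marker CD11b. The WT library came from Pgd fl/fl mice, and the 6PGDKO library from Pgd fl/fl LysM-Cre mice, so the floxed Pgd allele was shared by both. Pgd encodes 6-phosphogluconate dehydrogenase (6PGD), an enzyme of the pentose phosphate pathway, and LysM-Cre acts in macrophages, monocytes and neutrophils, so lymphocytes of 6PGDKO mice keep the gene. Animals of a genotype were pooled into 1 suspension, and the 2 tagged suspensions were loaded together. No genotype had a second library, so no test between genotypes was made. The intervals given are exact 95% intervals of the counting error alone, and the animals, the sort and the genotype cannot be told apart.

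Glycolysis splits glucose to pyruvate in the cytosol and yields ATP and NADH without oxygen. Pyruvate can then enter mitochondria or be reduced to lactate by lactate dehydrogenase, which restores NAD+, and lactate leaves the cell through monocarboxylate carriers. The oxidative pentose phosphate pathway, in which 6PGD acts, branches from glucose-6-phosphate, the product of hexokinase. In low oxygen the transcription factor HIF-1 is stabilised and raises transcription of many genes of this set. HIF-1 binds a short core sequence in hypoxia response elements, and macrophages in tumors are known for high glycolysis and for release of the angiogenic factor VEGF-A.

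The promoters of 4 members are shown for that core sequence, since these genes are discussed with their values further on and each has 1 annotated start. They are the 250 bases before the start of transcription in RefSeq (GRCm38.p6, the assembly known as mm10), written 5′ to 3′ on the strand of the gene, with matches to ACGTG or GCGTG on either strand in capitals (CACGT and CACGC are the same letters on the other strand, and the palindrome CACGTG counts as 2 matches).
Egln3, chr12:54203875-54204124, minus strand: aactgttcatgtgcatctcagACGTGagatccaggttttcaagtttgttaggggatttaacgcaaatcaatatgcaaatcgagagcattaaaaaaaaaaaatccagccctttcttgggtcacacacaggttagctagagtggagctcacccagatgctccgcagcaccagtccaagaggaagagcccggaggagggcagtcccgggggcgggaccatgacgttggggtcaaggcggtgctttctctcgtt
Slc2a1, chr4:119108495-119108744, plus strand: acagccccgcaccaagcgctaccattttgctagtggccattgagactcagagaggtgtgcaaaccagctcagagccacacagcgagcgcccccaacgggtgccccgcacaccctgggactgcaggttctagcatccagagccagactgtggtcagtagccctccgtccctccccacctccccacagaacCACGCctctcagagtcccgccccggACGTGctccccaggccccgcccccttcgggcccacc
Adm, chr7:110627407-110627656, plus strand: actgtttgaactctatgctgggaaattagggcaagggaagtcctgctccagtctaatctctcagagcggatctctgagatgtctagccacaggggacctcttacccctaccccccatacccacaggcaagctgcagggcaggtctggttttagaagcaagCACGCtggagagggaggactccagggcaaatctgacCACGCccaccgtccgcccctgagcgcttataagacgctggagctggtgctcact
Bnip3, chr7:138909507-138909756, minus strand: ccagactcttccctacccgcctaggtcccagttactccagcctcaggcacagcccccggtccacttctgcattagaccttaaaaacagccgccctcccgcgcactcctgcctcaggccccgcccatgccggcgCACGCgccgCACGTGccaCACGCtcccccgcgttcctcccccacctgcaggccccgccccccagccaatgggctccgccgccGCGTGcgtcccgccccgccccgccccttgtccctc
Egln3 held 1 match, 229 bases before the start, whereas Slc2a1 and Adm held 2 each and Bnip3 held 5. Of the 33 members, 31 were matched to a promoter entry, and 28 of them (90.3%) held at least 1 match, against 41.5% of 27025 genes. For ACGTG alone the counts were 18 of 31 (58.1%) and 18.5% of all genes, and for GCGTG 20 of 31 (64.5%) and 30.9%. Gpi1, Tpi1 and Eno2 held neither sequence. Slc2a3 and Ndrg1 had no entry. A match of letters is a description of the window and not of binding.

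The libraries held 3728 WT and 3014 6PGDKO barcodes and shared none. After filters, 3565 and 2798 cells were kept, with a median of 5554 and 7926 UMIs per cell. Cells were clustered without the genes of the set, and clusters were named by marker genes. Macrophage-like cells numbered 749 and 777 (WT and 6PGDKO throughout), monocyte-like cells 125 and 330, dendritic cell (DC)-like cells 102 and 140, neutrophil-like cells 59 and 72, T cell-like cells 1176 and 686, B cell-like cells 566 and 35, ILC and NK cell-like cells 131 and 141, and epithelial cell-like cells 72 and 97. Mast cell-like cells (0 and 16) were not compared, and 2 clusters stayed unnamed. The UMIs of each type were summed per library and given as CPM, in which every type and library is scaled to the same total of UMIs. Since each transcript is counted at its 3′ end, these levels need no correction for length.

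Pgd in macrophage-like cells stood at 104 CPM in WT and 29.9 CPM in 6PGDKO, a log2 ratio of −1.80 (−1.98 to −1.61). In monocyte-like cells it stood at 77.1 and 30.6 CPM, and in T cell-like cells at 26.7 and 31.1 CPM. The macrophage and monocyte values were lower in 6PGDKO and the T cell value was not. Epithelial cell-like cells, which LysM-Cre is not known to target, also had a lower 6PGDKO value (56.2 and 32.9 CPM, −0.77, −1.39 to −0.15), and DC-like cells stood at 23.8 and 21.4 CPM (−0.15, −0.82 to 0.53). Lyz2, the gene that carries the Cre insertion, stood at 3079 and 25.3 CPM in macrophage-like cells. Neutrophil-like cells held 9 and 5 Pgd UMIs only.

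The 18 glycolytic enzymes ran from hexokinase to pyruvate kinase and took in Ldha and Ldhb, but not the regulators Pfkfb3 and Pfkfb4. Their sum was similar in most types. In WT the sum came to 4368 CPM in macrophage-like, 4653 CPM in monocyte-like, 4311 CPM in neutrophil-like, 4902 CPM in epithelial cell-like and 4100 CPM in T cell-like cells. DC-like cells held 3535 CPM, ILC and NK cell-like cells 2239 CPM and B cell-like cells 1448 CPM. B cells were thus lowest, and the same held in 6PGDKO, with 1301 CPM. Gapdh, the glyceraldehyde phosphate dehydrogenase, was the highest single member in macrophage-like cells of both libraries.

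**Figure D1:**
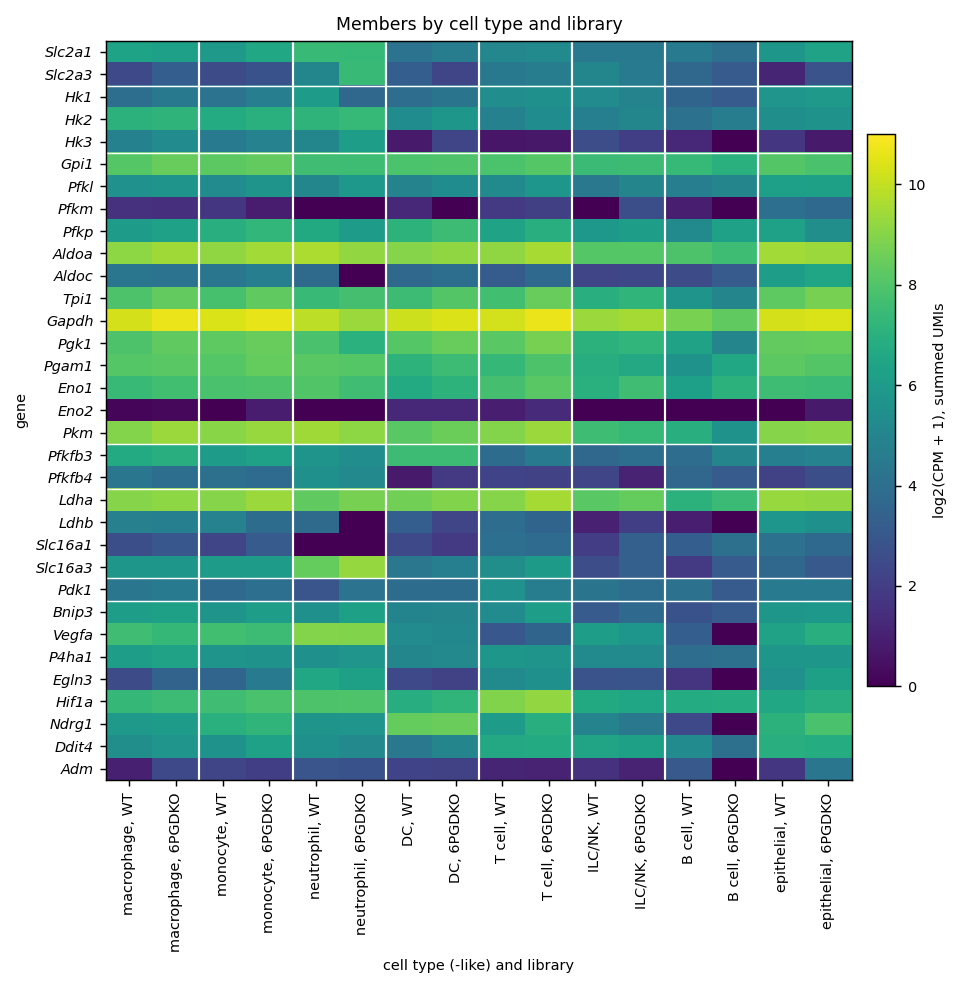
Level of each of the 33 genes (rows) in each cell type and library (columns), as log2(CPM + 1) on a colour scale, where lighter is higher. Vegfa and Hk3 are higher in the macrophage, monocyte and neutrophil columns than in the T cell columns, whereas Gapdh and Aldoa are high in every column.

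Some genes of the set differed in level between macrophage-like and T cell-like cells, in shares close to those of all genes. Of 32 members compared, 5 were at least 2-fold higher in macrophage-like cells in both libraries (15.7% of all genes were), namely Hk2, Hk3, Pfkfb3, Pfkfb4 and Vegfa. A further 5 were at least 2-fold lower in both (12.2% of all genes), namely Slc2a3, Hk1, Egln3, Hif1a and Ddit4. Libraries of the 2 genotypes are not replicates, and these folds are descriptions.

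Vegfa, which encodes the angiogenic factor VEGF-A, stood at 199 and 161 CPM in macrophage-like cells against 7.00 and 10.6 CPM in T cell-like cells, a level 28.4 and 15.3 times as high. With every cell reduced to 3000 UMIs, 27.8% of 708 WT and 27.5% of 716 6PGDKO macrophage-like cells held a Vegfa UMI, against 2.0% and 2.6% of T cell-like cells (unreduced 44.7% and 44.7% against 3.1% and 6.1%). Cells too shallow for this, 41 and 61 macrophage-like and 214 and 154 T cell-like, were left out. The median depths were 11861 and 12837 UMIs in macrophage-like and 4580 and 4689 UMIs in T cell-like cells. Neutrophil-like cells held the highest Vegfa level of these types, 492 and 481 CPM.

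Hexokinases, which trap glucose as glucose-6-phosphate, differed by isoform. In macrophage-like cells Hk2 made up 75.8% (73.6 to 77.8) of 1610 hexokinase UMIs in WT and 69.9% (67.9 to 71.9) of 2133 in 6PGDKO. Hk3 made up 15.9% and 19.5% and Hk1 8.3% and 10.5%. In T cell-like cells Hk1 led in both libraries, with 59.2% of 468 and 52.8% of 398 UMIs, and Hk3 was at 0.9% and 0.8%. The leading hexokinase thus differed between these classes, and the Hk3 share of T cell-like cells rests on 4 and 3 UMIs. An unnamed cluster led by Cd8b1, Cd8a and Gzmk lay outside the T cell-like class. There Hk1 took 48.1% and 48.9% of the hexokinase UMIs and Hk2 50.3% and 48.9%, so Hk1 did not lead.

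Glucose transporters also differed in share between macrophage-like and T cell-like cells, but Slc2a1 led in both. Slc2a1, which encodes GLUT1, took 95.01% and 89.4% of the Slc2a1 and Slc2a3 UMIs in macrophage-like cells, and 61.5% and 60.7% in T cell-like cells. In ILC and NK cell-like cells Slc2a1 took 39.6% of 53 UMIs in WT and 47.6% of 42 in 6PGDKO. The rest were Slc2a3, which encodes GLUT3, and both intervals (26.5% to 54.0% and 32.0% to 63.6%) include an equal share. In the unnamed Cd8b1 cluster Slc2a1 took 44.2% and 50.9%. In neutrophil-like cells Slc2a1 took 84.4% of 32 UMIs in WT and 49.1% of 57 in 6PGDKO. These neutrophil shares rest on 5 and 29 Slc2a3 UMIs, with intervals of 67.2% to 94.7% in WT and 35.6% to 62.7% in 6PGDKO.

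Lactate genes were dominated by 1 isoform. Ldha, the form that favours lactate production, made up 95.1% and 95.5% of the lactate dehydrogenase UMIs in macrophage-like cells and 97.3% and 98.6% in T cell-like cells. Of the lactate carriers, Slc16a3 (MCT4, known for lactate export) made up 91.4% and 89.0% of the Slc16a1 and Slc16a3 UMIs in macrophage-like cells. In neutrophil-like cells all 52 and all 107 carrier UMIs were Slc16a3, with lower bounds of 93.2% and 96.6%. In epithelial cell-like cells Slc16a3 took 41.7% of 24 and 37.0% of 27 carrier UMIs. Both intervals (22.1% to 63.4% and 19.4% to 57.6%) include an equal share, so the leading carrier was not resolved. In the unnamed Cd8b1 cluster it took 34.9% of 63 (23.3% to 48.0%) and 42.1% of 76 (30.9% to 54.0%).

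Phosphofructokinase, the enzyme that commits sugar to glycolysis, differed by form between types. Pfkp, the platelet form, took 58.4% and 60.1% of its UMIs in macrophage-like cells and 67.0% and 67.5% in T cell-like cells. In epithelial cell-like cells it took 46.9% and 32.8%, and Pfkl, the liver form, 44.1% and 57.5%. Pfkm, the muscle form, had 37 UMIs over both libraries in macrophage-like cells, and Eno2, the neuronal enolase, had 3. Aldoc took 3.2% and 2.5% of aldolase UMIs in macrophage-like cells and 9.1% and 12.01% in epithelial cell-like cells.

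**Figure D2:**
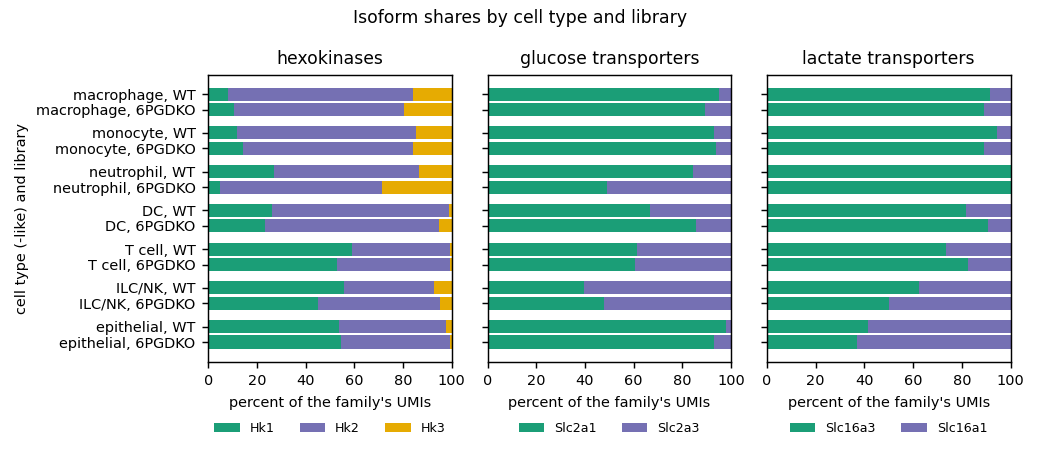
Share of a family's UMIs (x axis, percent, stacked bars) taken by each hexokinase, glucose transporter and lactate carrier, by cell type and library. B cell-like cells and the unnamed clusters are not drawn. Hk1 leads in T cell-like cells and Hk2 in macrophage-like cells, and the Slc2a1 share of neutrophil-like cells is 84.4% in WT and 49.1% in 6PGDKO.

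In macrophage-like cells, where the gene was deleted, the summed glycolytic enzymes stood at 4368 CPM in WT and 5381 CPM in 6PGDKO. The log2 ratio was 0.30 (0.28 to 0.32, from 40240 and 57566 UMIs). The 8 hypoxia genes summed to 609 and 634 CPM, a log2 ratio of 0.06 (0.01 to 0.11). Of 31 members with at least 50 UMIs over both libraries, 25 lay above 0 and 6 below, with a median log2 ratio of 0.20. Of all 10495 genes so measured, 6442 lay above 0, with a median of 0.07. Of the enzymes 14 of 16 lay above 0, with a median of 0.25, and of the hypoxia genes 7 of 8, with a median of 0.19. Vegfa was the hypoxia gene below 0 and one of the abundant terms of that sum.

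Every glycolytic step from hexokinase to pyruvate kinase held a member that was higher in 6PGDKO macrophage-like cells. Gapdh stood at 1236 and 1616 CPM, a log2 ratio of 0.39 (0.35 to 0.42). Pkm, the pyruvate kinase gene, stood at 502 and 657 CPM (0.39), and Tpi1, triose phosphate isomerase, at 246 and 329 CPM (0.42). Pgk1, which makes ATP, stood at 246 and 322 CPM (0.39). Gpi1, the isomerase after hexokinase, stood at 273 and 350 CPM (0.36), and Aldoa, the main aldolase, at 565 and 683 CPM (0.27). These abundant enzymes thus had ratios of 0.27 to 0.42. Hk1 stood at 14.5 and 21.0 CPM (0.53, 0.22 to 0.85) and Hk3 at 27.8 and 38.9 CPM (0.48, 0.26 to 0.72). Hk2, the main hexokinase of these cells, stood at 132 and 139 CPM (0.07). Smaller ratios were those of Pgam1 (271 and 294 CPM, 0.11), Pfkl (45.8 and 50.4 CPM, 0.14, −0.05 to 0.32), Pfkp (67.0 and 78.5 CPM, 0.23) and Eno1 (177 and 205 CPM, 0.21). Aldoc, the minor aldolase, had a ratio whose interval spanned 0 (18.7 and 17.3 CPM, −0.11, −0.42 to 0.20).

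At the lactate end the genotypes were close. Ldha stood at 517 and 552 CPM (0.09), and Slc16a3 at 55.7 and 55.4 CPM (−0.01, a near-identical level). Pdk1, which restrains entry of pyruvate into mitochondria, stood at 18.8 and 21.4 CPM (0.19, −0.10 to 0.48). Ldhb (26.7 and 25.9 CPM) and the carrier Slc16a1 (5.21 and 6.82 CPM) had intervals that spanned 0 too. The regulators of phosphofructokinase went apart, with Pfkfb3 at 104 and 119 CPM (0.19) and Pfkfb4 at 19.1 and 14.5 CPM (−0.40, −0.72 to −0.08).

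Among the 31 members, 3 were at least 1.5-fold higher in 6PGDKO macrophage-like cells, against 5.11% of all genes, and 0 were that much lower, against 2.70% of all genes. These 3 were of low level. Slc2a3 stood at 4.34 and 8.69 CPM (40 and 93 UMIs, log2 1.00, 0.45 to 1.57). Without the cells that held markers of another lineage its ratio was 0.24, which is not past the fold, and its level in T cell-like cells was higher (20.7 and 24.2 CPM). Egln3, which encodes a prolyl hydroxylase that marks HIF for decay, stood at 4.78 and 10.3 CPM (44 and 110 UMIs, 1.11, 0.59 to 1.65). Adm, which encodes the vasodilator adrenomedullin, stood at 0.977 and 4.39 CPM (9 and 47 UMIs, 2.17, 1.12 to 3.38). The 5 cells with most UMIs held 55.6% and 76.6% of the Adm UMIs. For Egln3 they held 45.5% and 30% of the UMIs. Egln3 and Adm were past the fold in 9 of 9 alternative settings and Slc2a3 in 8 of 9.

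Vegfa, by contrast, was at 199 and 161 CPM, a log2 ratio of −0.30 (−0.39 to −0.20), and Slc2a1 at 82.7 and 73.1 CPM (−0.18, −0.32 to −0.03). Both are known HIF targets, as are Egln3 and Adm, and the pairs lay on opposite sides of 0. Hif1a itself, the oxygen-regulated subunit, stood at 161 and 184 CPM (0.20). Bnip3, a mitophagy gene, stood at 69.9 and 75.6 CPM (0.11), and Ndrg1 at 59.3 and 67.0 CPM (0.18). Ddit4, an inhibitor of mTORC1 signalling, stood at 42.8 and 51.7 CPM (0.27), and P4ha1, a collagen prolyl hydroxylase, at 71.9 and 79.1 CPM (0.14).

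The enzyme sum was spread over cells. In cells reduced to 3000 UMIs, the 10th, 50th and 90th percentiles of enzyme UMIs per macrophage-like cell were 4, 10 and 25 in WT and 5, 13 and 32 in 6PGDKO. Among the 4 macrophage-like clusters, the ratio was 0.31 in the largest (Vcam1 and Mmp12 among its genes, 4366 and 5401 CPM), 0.28 in the cycling one (4194 and 5104 CPM) and 0.44 in one whose cells also held T and B cell transcripts (4592 and 6228 CPM). In a small cluster led by Retnla and Arg1 (15 and 50 cells) it was −0.10 (5260 and 4903 CPM), and its hypoxia sum stood at 928 and 661 CPM.

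Other transcripts moved beside these values. The 8 macrophage markers summed to 31094 and 27211 CPM in macrophage-like cells, and none was at 0. Summed T cell markers stood at 535 and 779 CPM, ILC and NK cell markers at 68.4 and 176 CPM, and B cell markers at 563 and 105 CPM. Cells with at least 2 UMIs of T cell or of B cell markers numbered 200 of 749 and 290 of 777, and without them the enzyme ratio was 0.32. ILC and NK cell markers were not used to leave cells out. The 5 cell cycle genes summed to 224 and 286 CPM, and without the cycling cluster the ratio was 0.31.

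**Figure D3:**
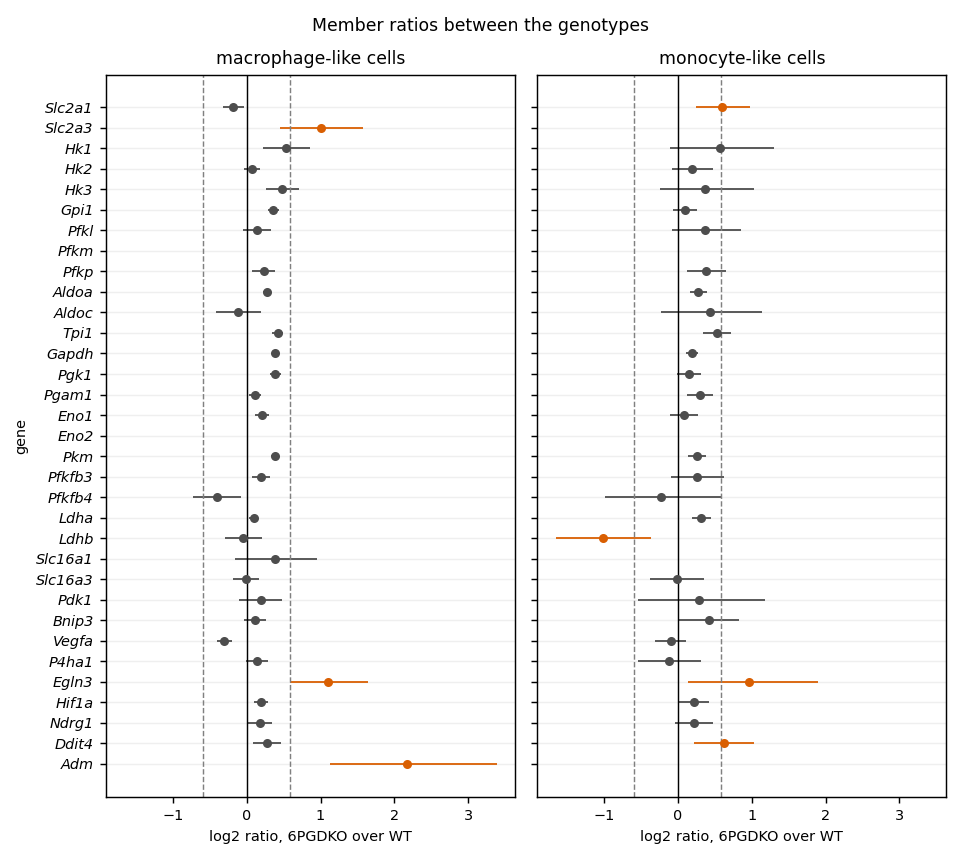
Log2 ratio of 6PGDKO over WT (x axis) for each member with at least 50 UMIs over both libraries, in macrophage-like and monocyte-like cells, with 95% intervals of counting error, dashed lines at a fold of 1.5 and members past it in orange. In macrophage-like cells 25 of 31 members lie above 0, against 6442 of 10495 genes. Adm (2.17), Egln3 (1.11) and Slc2a3 (1.00) lie farthest to the right there.

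Monocyte-like cells were led by Ly6i, Chil3 and Plac8. Cd209a, a DC marker, and Ccl17 were also among the leading genes of their cluster. Whether DC-like cells were mixed in, and in what share per library, was not tested. The enzyme sum was 4653 CPM in WT and 5498 CPM in 6PGDKO, a log2 ratio of 0.24 (0.20 to 0.28). The hypoxia sum was 686 and 775 CPM (0.18). Of 28 members, 23 lay above 0 and 5 below, with a median of 0.27. Over all genes 4045 of 7210 lay above 0, with a median of 0.05. T cell markers in these cells stood at 399 and 740 CPM, and 29 of 125 and 104 of 330 cells held markers of another lineage. Without those cells the ratio of the enzyme sum was 0.31.

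In these cells 3 members were at least 1.5-fold higher, against 8.27% of all genes, and 1 was that much lower, against 3.58%. Slc2a1 stood at 60.8 and 92.4 CPM (78 and 359 UMIs, 0.60, 0.25 to 0.98), where macrophage-like cells had a lower 6PGDKO value. Ddit4 stood at 49.9 and 76.7 CPM (0.62, 0.23 to 1.03). Egln3 stood at 10.9 and 21.4 CPM (14 and 83 UMIs, 0.97, 0.14 to 1.90), and 5 WT cells held 92.9% of its WT UMIs. Ldhb, the lactate dehydrogenase form that favours pyruvate, was the lower one, at 28.1 and 13.9 CPM (36 and 54 UMIs, −1.01, −1.65 to −0.36). With each cell typed singly by its markers, Ldhb turned to 0.63. Slc2a1 was past the fold in 8 of 9 alternative settings, Ddit4 in 7 of 9 and Egln3 in 6 of 8 (0.49 without cells of another lineage). Of the main enzymes, Tpi1 stood at 221 and 319 CPM (0.53) and Ldha at 513 and 640 CPM (0.32).

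DC-like cells gave 3535 and 4298 CPM for the enzyme sum (0.28, 0.23 to 0.33), and 23 of 24 members lay above 0, with a median of 0.33. Over all genes 3582 of 6109 lay above 0, with a median of 0.06. Ddit4 alone was at least 1.5-fold higher (20.2 and 31.1 CPM, 0.62, −0.03 to 1.31), against 8.72% of all genes. None was that much lower, against 2.24%. Tpi1 stood at 183 and 268 CPM (0.55). Pfkfb3, the kinase that makes the activator of phosphofructokinase, stood at 185 and 186 CPM. The Fscn1 and Ccl22 cluster carried this value (296 and 291 CPM), and the Xcr1 and Clec9a cluster stood at 41.5 and 58.3 CPM, below the 104 and 119 CPM of macrophage-like cells. The cell cycle sum in DC-like cells was 76.5 and 252 CPM. An unnamed cluster led by H2-M5, Epcam and Cd207 (103 and 145 cells) gave 4470 and 5585 CPM (0.32), and Ndrg1 there, at 506 and 580 CPM, and in the Fscn1 and Ccl22 DC-like cluster, at 477 and 528 CPM, was far above its 59.3 and 67.0 CPM in macrophage-like cells.

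**Figure D4:**
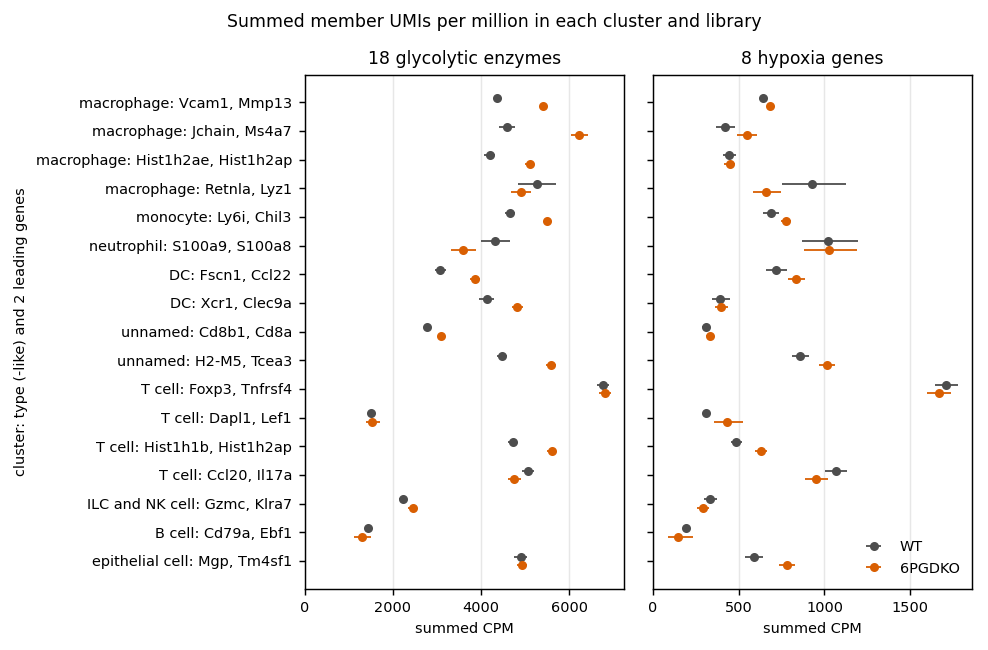
Summed CPM of the 18 glycolytic enzymes and of the 8 hypoxia genes in each cluster, with 1 point per library and 95% counting intervals. The Foxp3 cluster has the highest sum of enzymes (6767 and 6817 CPM) and of hypoxia genes (1710 and 1666 CPM), and the 2 libraries lie close together there.

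T cell-like cells, which keep Pgd, gave the largest ratio of the enzyme sum, 4100 and 5608 CPM (0.45, 0.43 to 0.48). Of 28 members, 24 lay above 0, with a median of 0.43. Over all genes 6109 of 9296 lay above 0, with a median of 0.12. The makeup of the class differed between the libraries. A cluster led by Dapl1, Lef1 and Tcf7, genes of naive T cells, held 493 WT and 58 6PGDKO cells and had the lowest enzyme sum of the T cell-like clusters, 1500 and 1536 CPM. With the clusters weighted by their WT cells in both libraries, the ratio was 0.04. The cell cycle sum of the class was 452 and 741 CPM. Fewer cells of a cluster and its lower level both enter a class sum.

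Within clusters the genotypes were mostly close. In the Foxp3 cluster (373 and 344 cells), as regulatory T cells have, the ratio of the enzyme sum was 0.01 (−0.03 to 0.05). There 12 of 25 members lay above 0, against 2838 of 5501 genes. In the Ccl20 and Il17a cluster the ratio was −0.09 (5057 and 4757 CPM). In the cycling cluster it was 0.25 (4719 and 5606 CPM), with 21 of 25 members above 0, against 3579 of 6652 genes. The unnamed cluster led by Cd8b1, Cd8a and Gzmk gave 2777 and 3102 CPM (0.16).

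At the level of the whole T cell class, 7 members were at least 1.5-fold higher, against 8.51% of all genes, and 1 was that much lower, against 3.82%. The higher ones were Tpi1 (205 and 342 CPM), Pgam1 (160 and 241 CPM), Aldoc (8.19 and 12.5 CPM), Pfkfb3 (13.9 and 22.7 CPM), Bnip3 (38.9 and 68.8 CPM), Ndrg1 (66.8 and 119 CPM) and Vegfa (7.00 and 10.6 CPM). Tpi1 and Pfkfb3 stayed past the fold in 9 of 9 alternative settings and Bnip3 and Ndrg1 in 8, but Pgam1 did so in 5, Aldoc in 4 and Vegfa in 1. Vegfa turned to −0.12 with cells typed singly. Pdk1 was the lower one (46.5 and 23.7 CPM, −0.97). In WT its level was highest in the naive-like cluster, at 80.0 CPM, against 33.3 CPM in the Foxp3 cluster. In 6PGDKO the same clusters stood at 32.8 and 32.5 CPM. The 6PGDKO naive-like value comes from 58 cells, in whose sum 1 UMI equals 4.10 CPM.

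Hypoxia genes were unevenly spread over the T cell clusters. Hif1a stood at 1000 and 1021 CPM in the Foxp3 cluster, 760 and 669 CPM in the Ccl20 and Il17a cluster, and 170 and 279 CPM in the naive-like cluster. Egln3 stood at 115 and 94 CPM in the Foxp3 cluster and at 2.55 and 4.10 CPM in the naive-like one. Bnip3 had 125 and 142 CPM against 1.70 and 4.10 CPM in the same clusters, and Ndrg1 174 and 197 CPM against 9.78 and 24.6 CPM. For the 58 6PGDKO cells of the naive-like cluster, 4.10 CPM is 1 UMI, so the Egln3 and Bnip3 values there are 1 UMI each. These levels separate the clusters far more than the genotypes.

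**Figure D5:**
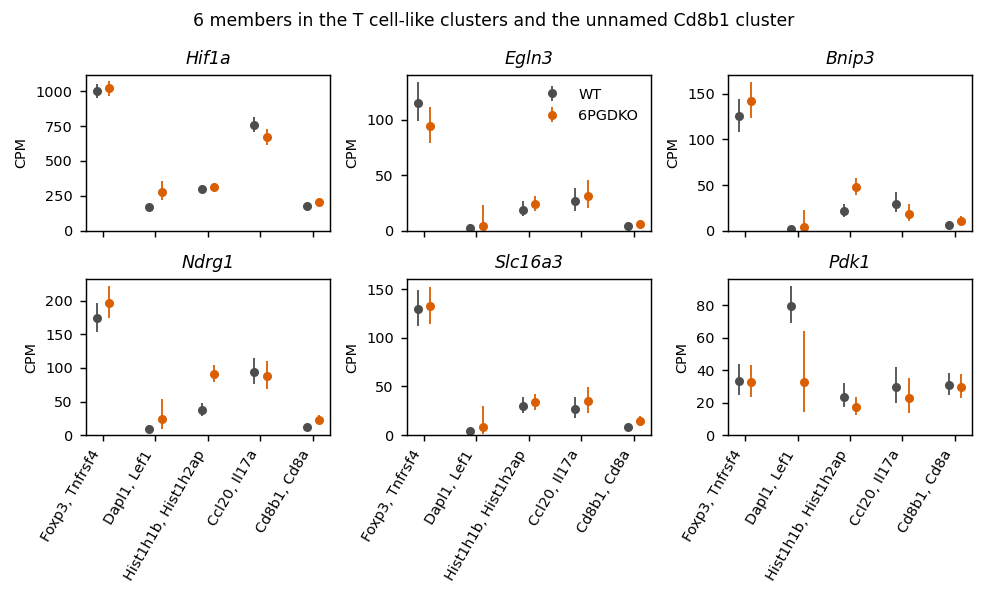
CPM of 6 members in the T cell-like clusters and the unnamed Cd8b1 cluster, by library, with 95% counting intervals. In the Foxp3 cluster Hif1a stands near 1000 CPM in both libraries. Pdk1 differs between libraries most in the naive-like cluster (80.0 and 32.8 CPM, the latter from 58 cells).

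Neutrophil-like cells gave 4311 and 3596 CPM for the enzyme sum (−0.26, −0.42 to −0.10), from 674 and 620 UMIs. The ratio moved to −0.06 without cells holding markers of another lineage and to 0.13 in cells reduced to 3000 UMIs, the last from the few cells that deep. Of 14 members, 5 lay above 0, against 435 of 917 genes. Slc16a3 was at least 1.5-fold higher, against 13% of all genes, at 333 and 621 CPM (52 and 107 UMIs, 0.90, 0.41 to 1.41). Pgk1 was that much lower, against 21.2% of all genes, at 230 and 128 CPM (36 and 22 UMIs, −0.85, −1.69 to −0.05). Slc2a3, with 5 and 29 UMIs, fell short of the 50 UMIs required.

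B cell-like values rest on 35 cells in 6PGDKO. There 3 of 14 members were at least 1.5-fold higher, against 17.1% of all genes, and 4 were that much lower, against 21.7%. The higher ones were Pfkp, Pgam1 and Eno1, and the lower ones Pkm, Pgk1, Ddit4 and Tpi1, none with over 17 UMIs in 6PGDKO. Pfkp stood at 36.2 and 78.4 CPM (1.11) and Pkm at 121 and 47.0 CPM (−1.36), and all 4 of the lower ones turned positive with cells typed singly. In ILC and NK cell-like cells the enzyme ratio was 0.13, and Pfkl (19.9 and 31.4 CPM) and Eno1 (124 and 198 CPM) were at least 1.5-fold higher, against 4.68% of all genes. None was that much lower, against 3.71%. In epithelial cell-like cells the enzyme sum was level (4902 and 4932 CPM, 0.01), but the hypoxia sum was 588 and 782 CPM (0.41, 0.26 to 0.57). Vegfa (79.6 and 124 CPM), Egln3 (46.8 and 75.6 CPM) and Ndrg1 (132 and 227 CPM) were at least 1.5-fold higher, against 9.83% of all genes. Pfkp (78.4 and 42.7 CPM) was that much lower, against 4.98%. Vegfa stayed past the fold in 8 of 9 alternative settings, Ndrg1 and Pfkp in 7 and Egln3 in 5. The lowest ratios were 0.19 for Ndrg1 and 0.06 for Egln3. Markers of another lineage were held by 27 of 72 and 29 of 97 epithelial cell-like cells.

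A wider list of 80 other genes of glycolysis, pyruvate handling and hypoxia was counted the same way. In macrophage-like cells 56 were measured, 33 lay above 0, and 5 were at least 1.5-fold higher and 0 lower, with a median of 0.11. Over all genes 6442 of 10495 lay above 0, with a median of 0.07, and 5.11% and 2.70% were past the fold, so the count above 0 is near that of all genes. Txnip, which limits glucose uptake, stood at 129 and 210 CPM (0.70, 0.60 to 0.81), and its relative Arrdc4 at 26.7 and 40.6 CPM (0.60). P4ha2 (3.47 and 7.48 CPM), Ankrd37 (7.49 and 13.4 CPM) and Plod2 (1.95 and 3.37 CPM), all named as hypoxia genes, were the others. In T cell-like cells Txnip went the other way, at 270 and 149 CPM (−0.86).

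Monocyte-like cells had 39 genes of the wider list measured, with 27 above 0, 5 at least 1.5-fold higher and 2 lower, against 8.27% and 3.58% of all genes. The higher ones were Kdm3a (7.01 and 16.0 CPM), Dld (17.9 and 37.3 CPM), Fam162a (53.8 and 96.5 CPM), Ero1l (38.2 and 66.4 CPM) and Egln2 (19.5 and 30.6 CPM). Pdk3 (39.0 and 22.4 CPM) and Eno3 (20.3 and 12.1 CPM) were lower. In the other types the higher and lower counts were 11 and 1 of 50 in T cell-like cells (all genes 8.51% and 3.82%), 2 and 3 of 35 in DC-like cells (8.72% and 2.24%) and 8 and 2 of 36 in epithelial cell-like cells (9.83% and 4.98%). They were 4 and 4 of 25 in B cell-like cells (17.1% and 21.7%), 2 and 0 of 21 in ILC and NK cell-like cells (4.68% and 3.71%) and 1 and 2 of 6 in neutrophil-like cells (13% and 21.2%).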

How the data were processed

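Single-cell 3′ transcripts of 2 libraries were measured. The authors deposited UMI counts per gene and cell, made with Cell Ranger 6.1.2 on mm10 per the submitters' processing notes; no normalisation had been applied to these counts. Multiplexing oligonucleotide counts (12) were not used further. The cell filter took 500 to 7500 genes and a mitochondrial share up to 15%. Clusters were made in Seurat 5.3.0 (R 4.3.3) from 1973 variable genes, 27 listed genes left out, with 30 components, 20 neighbours and resolution 0.8. A cluster was named when at least 3 markers of a type were each found in at least 25% of cells. The name was withheld when another type had more markers among the 10 leading genes. A named cluster could thus hold a marker of another type there, as Cd209a (DC) in the monocyte-like cluster. Among macrophage-like clusters, Ighm (B cell) and F13a1 (monocyte) were such markers. These limits were set after the clusters were seen. No doublet caller was run. Instead, cells with at least 2 UMIs of another lineage's markers were left out as an alternative. For T, B, ILC and NK cell-like cells these markers were C1qa, C1qb and C1qc. For every other type they were Cd3e, Cd3d, Cd3g, Trac and Trbc2, or Cd79a, Cd79b and Ms4a1.

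UMIs were summed per type and library (Python 3.11.15, scipy 1.17.1). Ratios have exact conditional intervals and shares exact binomial ones. Calls need 50 UMIs over both libraries and a fold of 1.5, a rule of size without a test, and the code was tested on simulated data. All members past the fold are named, as are those differing 2-fold between macrophage-like and T cell-like cells, and up to 10 wider genes in macrophage-like and monocyte-like cells. Members of clusters were picked after their values were seen. The members and lists were chosen with earlier results of these data known. Reads of near-identical copies can be split, so Eno1 (10884 UMIs) and Eno1b (164 UMIs) are uncertain to that extent. A second identifier of Aldoa held 1 UMI. The alternatives without single clusters or Gapdh, with other cluster weights or with the unnamed T cell cluster were added after seeing the data.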

Additional observations from a re-analysis of the deposited data

Results flagged for a closer look

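The summed glycolytic enzymes had opposite directions in different cell types. The log2 ratio of 6PGDKO over WT was 0.30 in macrophage-like cells, −0.26 in neutrophil-like cells and −0.15 in B cell-like cells. The difference between the types was not tested, since each genotype had 1 library. The neutrophil value rests on 674 and 620 UMIs and was 0.13 in cells reduced to 3000 UMIs. Haemoglobin genes were among the leading genes of that cluster and count in its total. The B cell interval, −0.39 to 0.07, spans 0 and comes from 35 cells in 6PGDKO.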

How the results depend on the processing

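No paired analysis was possible because each genotype had 1 library, and no library could be left out. Of 278 alternatives for single members, 246 kept their value within the interval, 24 moved and 8 changed direction. All 8 came from typing cells singly by their markers: in B cell-like cells Ddit4 0.13, Pgk1 1.33, Pkm 1.06 and Tpi1 1.18, and Eno1 −0.018 in ILC and NK cell-like, Ldhb 0.63 in monocyte-like, Pfkp 0.26 in epithelial cell-like and Vegfa −0.12 in T cell-like cells. The cause was not tested. The enzyme ratio of macrophage-like cells (0.30) was 0.32 without cells of mixed lineage, 0.34 with mitochondrial and ribosomal protein genes out of the total, 0.23 with median-of-ratios scaling, 0.32 as a mean over cells, 0.35 in reduced cells and 0.27 without Gapdh. That of monocyte-like cells (0.24) was 0.16 at resolution 1.6, 0.49 with cells typed singly, 0.31 without mixed cells and 0.20 with median-of-ratios scaling. That of T cell-like cells (0.45) was 0.38 with cells typed singly, 0.49 without mixed cells, 0.33 with either other scaling, 0.53 as a mean over cells, 0.62 in reduced cells, 0.37 with the unnamed Cd8a cluster and 0.035 with WT cluster weights. Median-of-ratios scaling moved all T cell ratios by 0.12. Member medians moved to 1.12 (B cell-like) and 0.62 (monocyte-like) with cells typed singly, and to 0.58 (T cell-like) in reduced cells. Counts past the fold depend on the minimum: at 10, 200 and no UMIs they were 12, 1 and 13 in B cell-like (7), 5, 0 and 6 in DC-like (1), 5, 1 and 9 in ILC and NK cell-like (2) and 8, 0 and 9 in neutrophil-like cells (2). At 200 UMIs they were 5 in T cell-like (8), 2 in epithelial cell-like (4), 0 in macrophage-like (3) and 2 in monocyte-like cells (4), and epithelial cell-like cells had 8 with no minimum. At a fold of 2 they were 4 in B cell-like and 1 in monocyte-like cells, and 0 in DC-like, ILC and NK cell-like, T cell-like, epithelial cell-like and neutrophil-like cells. Neutrophil-like values are limited by depth (median 2256 and 2113 UMIs per cell), and 6PGDKO B cell-like values by their 35 cells. Slc2a3 in macrophage-like cells (1.00) was 0.24 without mixed cells.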

Other observations

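In the Foxp3 cluster, 2 members chosen after their values were seen differed in opposite directions. Ddit4 stood at 197 CPM in WT and 127 CPM in 6PGDKO (log2 −0.64), and Hk2 at 20.7 and 37.5 CPM (0.86). In the unnamed H2-M5, Epcam and Cd207 cluster, Vegfa stood at 63.5 and 133 CPM (1.06) and Pfkfb3 at 28.3 and 63.0 CPM (1.15), whereas Vegfa in macrophage-like cells had a log2 ratio of −0.30. Adm in that cluster had 38 UMIs in WT and 2 in 6PGDKO, and all WT UMIs lay in 1.94% of the cells.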
